A study of Mus musculus with 6 samples.

Results

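The 10 genes described here are genes known for their expression in fat cells: Adipoq, Cidec, Plin1, Cfd, Pck1, Cdo1, Plin4, Cidea, Pnpla3 and Cyp2e1, out of 17524 genes in the deposited table. They were chosen from earlier results of the same comparison in the same 6 libraries, so their difference between the groups is given as a description, without a test. The libraries were made from mouse heart after ligation of the anterior descending branch of the left coronary artery, which causes a myocardial infarction in both groups. The 3 controls (libraries 35, 36 and 37) are labelled wild type, and the 3 TFEB overexpression libraries (34, 41 and 43) come from a line in which Cre recombinase, driven by the promoter of the smooth muscle actin gene Acta2, switches on a TFEB cassette at the Rosa26 locus. All 6 are labelled heart, and also primary fibroblasts and fibrocyte. Sex, age and the time after ligation are not given in the labels, nor is it said that each library is a separate animal, so that the spread between libraries may be technical.

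White adipocytes store triglyceride in a single large droplet, coated by perilipin 1 and enlarged by CIDE proteins, and secrete hormones such as adiponectin and adipsin. Brown adipocytes hold many small droplets and burn fat through uncoupling protein 1. In the mouse, fat lies on the outside of the heart along the pericardium and the great vessels, next to the mesothelium that covers the heart, while heart muscle itself expresses part of the same lipid genes. In RNA from bulk tissue, fewer fat cells and less RNA per fat cell cannot be told apart.

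The 10 genes fell into 2 sets. Adipoq, Cidec, Plin1, Cfd, Pck1, Cdo1 and Cyp2e1 were lower in every TFEB overexpression library than in any control, with mean levels 4.99 to 17.7 times lower. Plin4, Cidea and Pnpla3 differed by 1.21 to 1.63 times and their groups overlapped. The 7 separated genes varied among the controls almost as widely as between the groups: control 36 stood 4.96 to 16.1 times above control 37. Absence of overlap in this direction was found for 2.51% of the 13565 genes tested (341 genes); because the members were chosen on this comparison, nothing is read from their 7 of 10. In all 7 the controls stood in the order 36, 35, 37 as well, which with absence of overlap held for 0.464% of the genes tested (63 genes).

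The promoters of 4 of the 7 separated genes are shown because these genes moved together across the libraries and because their start regions differ in the motifs matched. Adipoq and Cyp2e1 share the CCAAT box (CCAAT). Each line is the 250 bases before the gene start in mm10 (GRCm38.p6), taken from RefSeq, 5′ to 3′ on the strand of the gene, with the motif letters found on either strand in capitals. They lie at chr16:23146286-23146535 on the plus strand for Adipoq, chr7:79732777-79733026 on the minus strand for Plin1, chr2:173152823-173153072 on the plus strand for Pck1 and chr7:140763569-140763818 on the plus strand for Cyp2e1.
Adipoq: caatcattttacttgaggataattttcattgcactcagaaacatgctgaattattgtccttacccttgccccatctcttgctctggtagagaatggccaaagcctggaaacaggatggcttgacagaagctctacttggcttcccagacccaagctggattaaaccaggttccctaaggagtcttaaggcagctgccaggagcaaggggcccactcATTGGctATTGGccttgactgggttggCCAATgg
Plin1: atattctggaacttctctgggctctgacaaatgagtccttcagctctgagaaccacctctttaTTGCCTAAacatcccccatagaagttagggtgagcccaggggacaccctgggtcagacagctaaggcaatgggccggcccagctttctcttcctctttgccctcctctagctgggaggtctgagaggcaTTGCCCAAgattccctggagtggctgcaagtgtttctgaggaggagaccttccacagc
Pck1: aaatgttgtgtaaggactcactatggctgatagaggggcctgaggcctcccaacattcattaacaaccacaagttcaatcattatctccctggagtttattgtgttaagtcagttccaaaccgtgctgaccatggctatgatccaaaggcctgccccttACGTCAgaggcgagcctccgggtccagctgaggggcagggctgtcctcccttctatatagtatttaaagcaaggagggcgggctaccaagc
Cyp2e1: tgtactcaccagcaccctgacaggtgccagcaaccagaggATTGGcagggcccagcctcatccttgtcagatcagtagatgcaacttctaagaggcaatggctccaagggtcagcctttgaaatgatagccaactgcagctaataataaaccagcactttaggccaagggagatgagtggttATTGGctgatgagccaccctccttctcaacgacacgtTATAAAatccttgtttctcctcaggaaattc

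8 of the 10 genes have an entry in the promoter table, with 9 promoters since Cidec has 2, and 7 motifs were searched on both strands in the 250 bases. The Adipoq promoter holds the CCAAT box (CCAAT) 3 times, within the last 34 bases before the start, and Cyp2e1, Plin4 and Pnpla3 hold it too; it occurs in 33.8% of the 32851 promoters of the table. The C/EBP motif TTGCNNAA, bound by factors that drive fat cell differentiation, occurs 2 times in the Plin1 promoter and 1 time in 1 of the Cidec promoters, against 9.56% of all promoters. Pck1 and Pnpla3 hold the half-site of the cyclic AMP response element (ACGTCA), which 6.47% of all promoters do, and in Pnpla3 the 2 matches, 1 on each strand, overlap. The TATA box (TATAAA) was matched in Cyp2e1 alone and in 12.4% of all promoters. Neither the nuclear receptor half-site AGGTCA (14.0% of all promoters), nor a pair of these half-sites 1 base apart as PPAR gamma binds them (0.0335%), nor the E-box CACGTG that TFEB can bind (6.02%) was matched in any of the 9 promoters. The Cfd promoter matched none of the 7 motifs. A match or its absence describes only the letters in this window.

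Levels are given as CPM, the estimated read count of a gene scaled to a common library size, and, where genes are compared with each other, as TPM, which also corrects for transcript length. Adipoq, which encodes the fat hormone adiponectin (Entrez 11450, mm10 chromosome 16, 23146536 to 23157968), measured 11.1, 29.5 and 2.1 CPM in control libraries 35, 36 and 37, against 0, 1.61 and 0.826 CPM in TFEB libraries 34, 41 and 43. Adipoq averaged 14.2 ± 14.0 CPM over the controls, beside 0.812 ± 0.806 CPM over the TFEB libraries (SD, n = 3 each). The lowest control was only 1.3 times the highest TFEB library. No read was counted in TFEB 34, which at its depth allows up to 0.191 CPM (3 counts, counting error only).

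Cfd encodes adipsin, the serine protease that cleaves factor B in the alternative complement pathway (Entrez 11537, chromosome 10, 79890853 to 79892655). By TPM, though not by CPM in TFEB 43, Cfd was the most abundant of the 7 in every library but TFEB 34. It measured 22.8, 154 and 9.57 CPM in control libraries 35, 36 and 37, against 0.0636, 6.37 and 4.13 CPM in TFEB libraries 34, 41 and 43. Control 36 thus held 16.1 times the level of control 37, close to the 17.7-fold ratio of the group means (62.2 ± 80.0 and 3.52 ± 3.20 CPM; SD, n = 3 each). In TFEB 34 the gene was counted 1 time.

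The droplet genes of white fat behaved alike. Plin1, the perilipin that guards the droplet against lipases (Entrez 103968, chromosome 7, 79721164 to 79732904), measured 1.95, 12.2 and 1.32 CPM in control libraries 35, 36 and 37, against 0.0636, 0.586 and 0.826 CPM in TFEB libraries 34, 41 and 43. Cidec, whose product fuses droplets into larger ones (Entrez 14311, chromosome 6, 113424634 to 113435760), measured 4.97, 17.0 and 1.4 CPM in the 3 controls, against 0, 0.586 and 0.744 CPM with TFEB overexpression, in the same order. In both genes control 36 was far above the rest, control 37 lay nearer to the TFEB libraries than to control 36, and TFEB 34 was lowest. The means of the controls were 5.16 ± 6.12 CPM for Plin1 and 7.79 ± 8.17 CPM for Cidec, and those of the TFEB libraries 0.492 ± 0.390 and 0.443 ± 0.392 CPM (SD, n = 3 each).

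Genes of 3 enzymes completed the separated set. Pck1, the cytosolic PEP carboxykinase that makes glycerol for triglyceride in fat (Entrez 18534, chromosome 2, 173153073 to 173159274), measured 7.52, 13.6 and 1.4 CPM in control libraries 35, 36 and 37, against 0.191, 0.220 and 1.32 CPM in TFEB libraries 34, 41 and 43. Control 37 and TFEB 43 almost met, at 18 and 16 counts. Cyp2e1, a cytochrome P450 that oxidises ethanol and is abundant in liver and fat (Entrez 13106, chromosome 7, 140763819 to 140774990), measured 15.6, 64.3 and 8.63 CPM in the 3 controls, against 0.191, 2.86 and 4.46 CPM with TFEB overexpression, averaging 29.5 ± 30.3 and 2.5 ± 2.16 CPM (SD, n = 3 each). Cdo1, cysteine dioxygenase, which starts the route from cysteine to taurine (Entrez 12583), measured 8.39, 23.9 and 4.82 CPM in the 3 controls, against 3.37, 2.34 and 1.74 CPM with TFEB overexpression. It is the exception among the 7, since TFEB 34, lowest for the other 6, was its highest TFEB library.

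**Figure D1:**
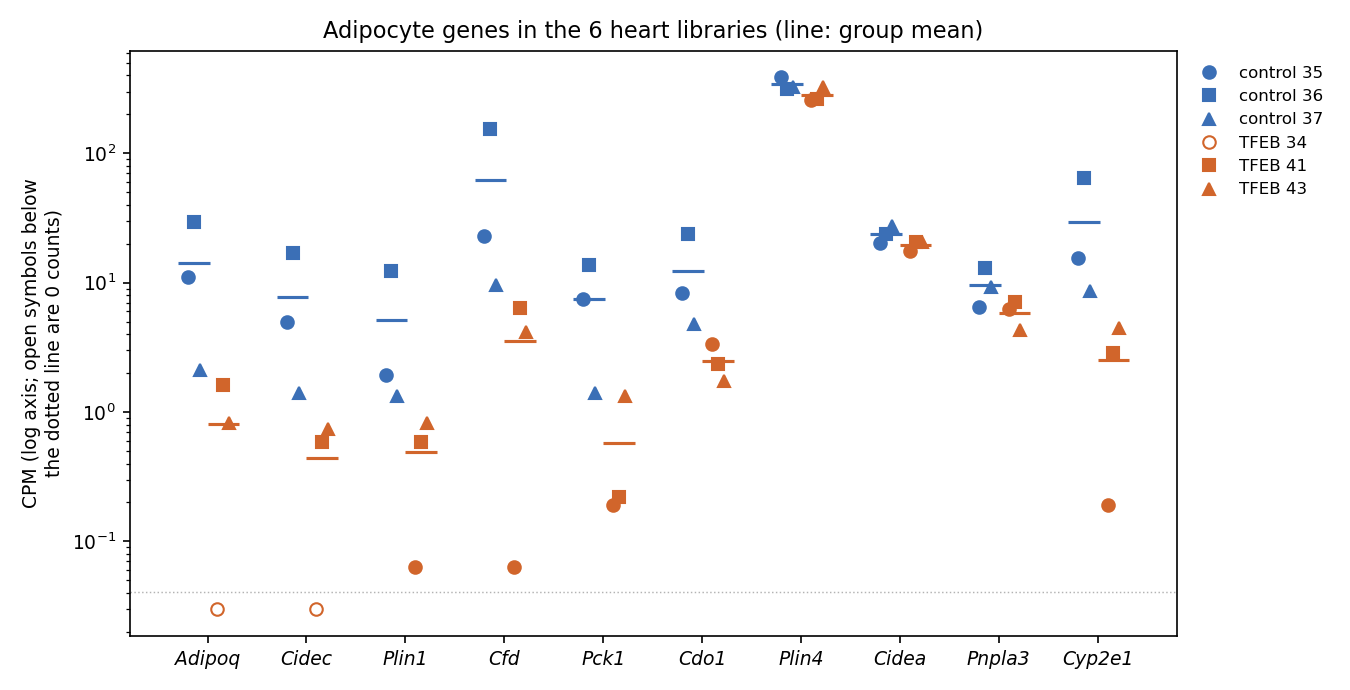
Level of each of the 10 genes in each library as CPM on a log axis, controls in blue and TFEB overexpression in orange, with the group mean as a line and 0 counts as open symbols. Control 36 is the highest symbol for 8 of the 10 genes, and Plin4, Cidea and Pnpla3 show overlapping groups.

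The other 3 members differed less between the groups, and Plin4 and Cidea varied less among the libraries than Pnpla3. Plin4, a perilipin of fat, heart and skeletal muscle (Entrez 57435, chromosome 17, 56100587 to 56109948), measured 386, 314 and 326 CPM in control libraries 35, 36 and 37, against 257, 264 and 323 CPM in TFEB libraries 34, 41 and 43. Its reads were divided over 12 transcript models. Cidea, a CIDE protein best known from brown fat (Entrez 12683), measured 20.3, 23.9 and 27.2 CPM in the 3 controls, against 17.6, 20.7 and 20.6 CPM with TFEB overexpression. Control 36 was not the highest library for either gene, and TFEB 43 for Plin4, and TFEB 41 and 43 for Cidea, lay above the lowest control. Pnpla3, or adiponutrin, a lipid hydrolase of the patatin family (Entrez 116939, chromosome 15, 84167776 to 84189521), measured 6.44, 13.0 and 9.26 CPM in the 3 controls, against 6.30, 7.03 and 4.3 CPM with TFEB overexpression, so TFEB 41 exceeded control 35.

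Per transcript length, the order of the genes changed between libraries. In control 36 Cfd led with 412 TPM, ahead of Plin4 (88.7 TPM), Cyp2e1 (74.7 TPM), Adipoq (53.1 TPM) and Cidea (46.4 TPM). In TFEB 34 Plin4 (74.2 TPM) and Cidea (35.2 TPM) led, Cdo1 followed at 4.21 TPM, and Cfd stood at 0.180 TPM. The 7 separated genes summed to 116, 612 and 44.0 TPM in controls 35, 36 and 37 and to 4.83, 26.2 and 19.7 TPM in TFEB 34, 41 and 43, while the 3 others summed to 132 to 143 TPM in the controls and 112 to 116 TPM in the TFEB libraries. Within the 7, Cfd made up 49.0% to 67.3% of the summed TPM in every library but TFEB 34, Cyp2e1 12.1% to 23.0% and Cidec 2.56% to 4.84%. The shares of the others varied more over these 5 libraries, from 6.59% to 16.4% for Adipoq, 4.74% to 11.8% for Cdo1, 1.73% to 4.00% for Plin1 and 0.573% to 4.50% for Pck1, while the sum ranged from 19.7 to 612 TPM. In TFEB 34 Cdo1 made up 87.2% of the sum and Cfd 3.73%.

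Expressed as log2 fold changes from edgeR, TFEB overexpression over control, the values were −4.17 for Cidec (SE 1.21), −4.17 for Cfd (SE 1.4), −4.15 for Adipoq (SE 1.25), −3.75 for Pck1 (SE 1.04), −3.59 for Cyp2e1 (SE 1.09), −3.42 for Plin1 (SE 1.13) and −2.31 for Cdo1 (SE 0.64). They were −0.70 for Pnpla3 (SE 0.31), −0.28 for Plin4 (SE 0.15) and −0.28 for Cidea (SE 0.14). All 10 passed the filter on low counts, for which 3 libraries with enough reads suffice, so a gene detected in the controls alone passes it. The median of the 10 was −3.51, that of all genes tested 0.003. Without control 36 the median was −1.99, and the 7 separated genes stood at −3.04 (Adipoq), −2.99 (Pck1), −2.88 (Cidec), −2.30 (Cyp2e1), −2.21 (Cfd), −1.76 (Plin1) and −1.40 (Cdo1). The size of the difference therefore rests in large part on 1 control library. Its sign was the same with any 1 library left out, which for the 7 separated genes already follows from the absence of overlap.

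**Figure D2:**
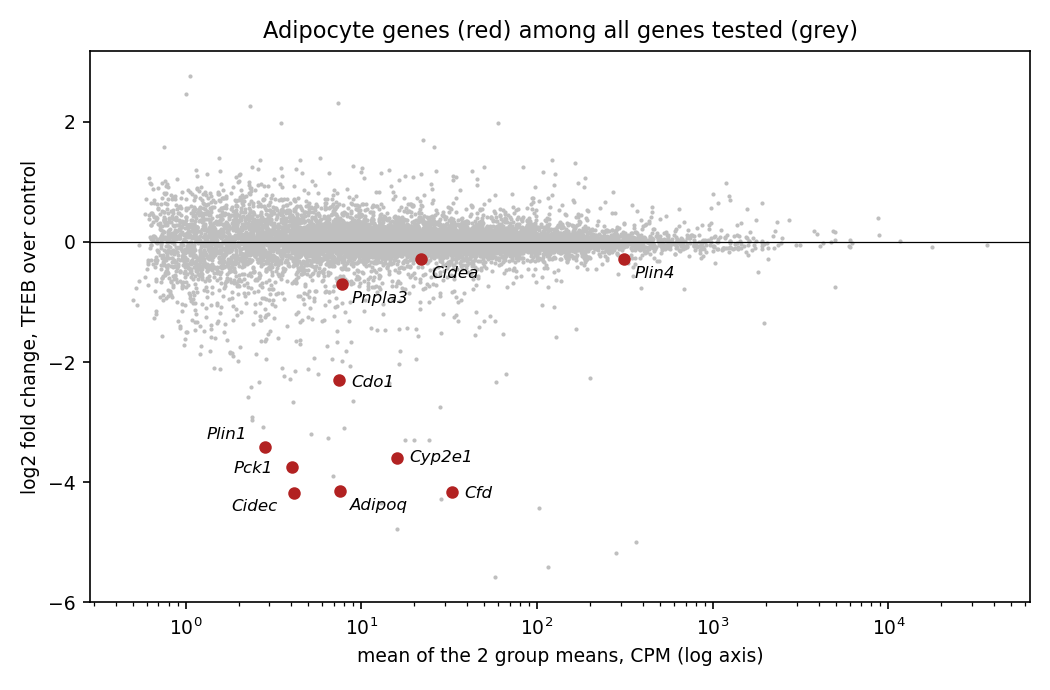
Log2 fold change (TFEB overexpression over control, edgeR) against the mean of the group means in CPM on a log axis, with the 13565 genes tested in grey and the 10 adipocyte genes in red. The 7 separated genes lie between −2.31 and −4.17, and Plin4, Cidea and Pnpla3 lie at −0.70 or nearer to 0.

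Across all genes, edgeR's quasi-likelihood test called 0 genes higher and 0 lower after Benjamini-Hochberg adjustment (0% of 13565 in each direction), and 164 had an unadjusted p under 0.05. That is fewer than a threshold of 0.05 gives on average when no gene differs. DESeq2 called 1 gene, and the other tools tried, limma-voom on counts and limma-trend on log TPM and log FPKM, called 0. Other genes of fat were read from 12 lists, which hold 112 genes besides the 10; 91 of these were tested, 0 were called in either direction, and 61 had a log2 fold change below 0 (the median was −0.06). The groups did not overlap for 4 of the 91 in the lower direction (2.51% of all genes tested) and for 2, Hilpda and Appl1, in the higher direction (2.24%).

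Of the 20 genes of the adipocyte identity list, 15 had their highest level in control 36, which was the highest library for 12.6% of the 17480 genes with a count and for 11.4% of the genes tested. Of the 20, 10 fell below the count filter, and in all 10 the controls stood in the order 36, 35, 37, as in the 7 separated genes; 6 of the 10 did not overlap between the groups. Of the 3915 genes with a count below the filter, 14.1% had this order of controls and 3.07% did not overlap, lower in TFEB overexpression. In the 6, control 37 held 1 to 7 counts and the highest TFEB library 0 to 5, so their separation rests on few counts. Lep had 1 count in both control 37 and TFEB 41 and was separated only by the scaling for depth. A gene detected mainly in 1 library falls below that filter by its construction, so that the filter itself divides the list by this pattern. The 10 summed to 7.25, 40.1 and 2.80 CPM in controls 35, 36 and 37 and to 1.08, 1.68 and 2.07 CPM in TFEB 34, 41 and 43. The sum was thus highest in control 36 and lower in every TFEB library than in any control.

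Retn, the hormone resistin, measured 0.872, 6.39 and 0.156 CPM in control libraries 35, 36 and 37, against 0, 0.220 and 0.413 CPM in TFEB libraries 34, 41 and 43. Adrb3, the beta-3 adrenergic receptor that starts lipolysis in fat, measured 1.07, 6.60 and 0.311 CPM in the 3 controls, against 0, 0.146 and 0.331 CPM with TFEB overexpression, and Acvr1c, a receptor of the activin family, 0.604, 5.20 and 0.311 CPM against 0.127, 0.366 and 0.248 CPM. In these 3 genes control 37 did not stand above every TFEB library. Lep, which encodes leptin, belongs to the same 10 and is named here after its values were seen; it was counted 61 times in control 36, 8 times in control 35 and at most 1 time in any other library.

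The groups of all 10 identity genes that passed the filter overlapped. Their median log2 fold change was −0.19, with 9 of 10 below 0 and 0 called. Fabp4, the fatty acid binding protein of fat and of capillary endothelium, measured 445, 552 and 520 CPM in control libraries 35, 36 and 37, against 341, 446 and 478 CPM in TFEB libraries 34, 41 and 43. Pparg, the master transcription factor of fat cells, ran from 13.6 to 15.4 CPM in the controls and from 11.9 to 15.2 CPM in TFEB overexpression. Log2 fold changes were −0.26 for Fabp4, −0.10 for Pparg, −0.22 for the hormone-sensitive lipase gene Lipe, −0.47 for the carboxylesterase gene Ces1d, −0.55 for the lipogenic gene Thrsp and −0.22 for Mrap, which encodes a melanocortin receptor partner (edgeR adjusted p = 1.00 for each). Those of the glycerol channel gene Aqp7 (−0.11), Trarg1 (−0.17), Cebpa (−0.02) and Sncg (0.03) were close to 0 and changed sign in some alternative fits.

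In fatty acid synthesis, control 36 was again the highest library for 7 of 11 genes. Scd1, stearoyl-CoA desaturase, measured 71.4, 174 and 40.5 CPM in control libraries 35, 36 and 37, against 31.4, 36.7 and 30.4 CPM in TFEB libraries 34, 41 and 43. Fasn, fatty acid synthase, measured 68.9, 131 and 68.5 CPM in the 3 controls, against 64.4, 54.5 and 48.6 CPM with TFEB overexpression. Their groups did not overlap, nor did those of their regulator Srebf1, yet none passed: the log2 fold changes were −1.54 (SE 0.51), −0.68 (SE 0.28) and −0.25 (SE 0.10), with an edgeR adjusted p of 1.00 for each. Without control 36 the value of Scd1 was −0.77 and that of Fasn −0.30. Of the 11 genes 9 had a lower value, and the median was −0.21.

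The other lists stayed near 0 in their medians, which cover only genes that passed the count filter, with 0 genes called in each. The median log2 fold change was −0.02 for the other droplet proteins (6 of 8 below 0), among them Plin2 (0.15), the perilipin of most cells, and Hilpda (0.28), an inhibitor of lipolysis. It was −0.05 for triglyceride synthesis (6 of 11 below 0), with Gpd1 at −0.15, and −0.15 for fatty acid and glucose uptake (7 of 8), with Fabp5 at −0.16. Lipolysis genes had a median of −0.14 (7 of 10), among them Prkar2b (−0.82, SE 0.34) and Pde3b (−0.74, SE 0.37), which act in cyclic AMP signalling. Secreted proteins of fat had a median of −0.25 (4 of 6), with the angiotensinogen gene Agt at −1.10 (SE 0.45); control 35 was its highest library, at 12.0 CPM, and without it the value was −0.44. Adipogenic transcription factors had a median of −0.06 (6 of 10), with Klf15 at −0.43 and Nr1h3 at −0.25, and progenitor genes −0.10 (6 of 8), with Dpp4 at −0.70. The receptors of adiponectin and the proteins of its secretion and signalling stood at a median of 0.01 (3 of 7), with Appl1 at 0.11.

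**Figure D3:**
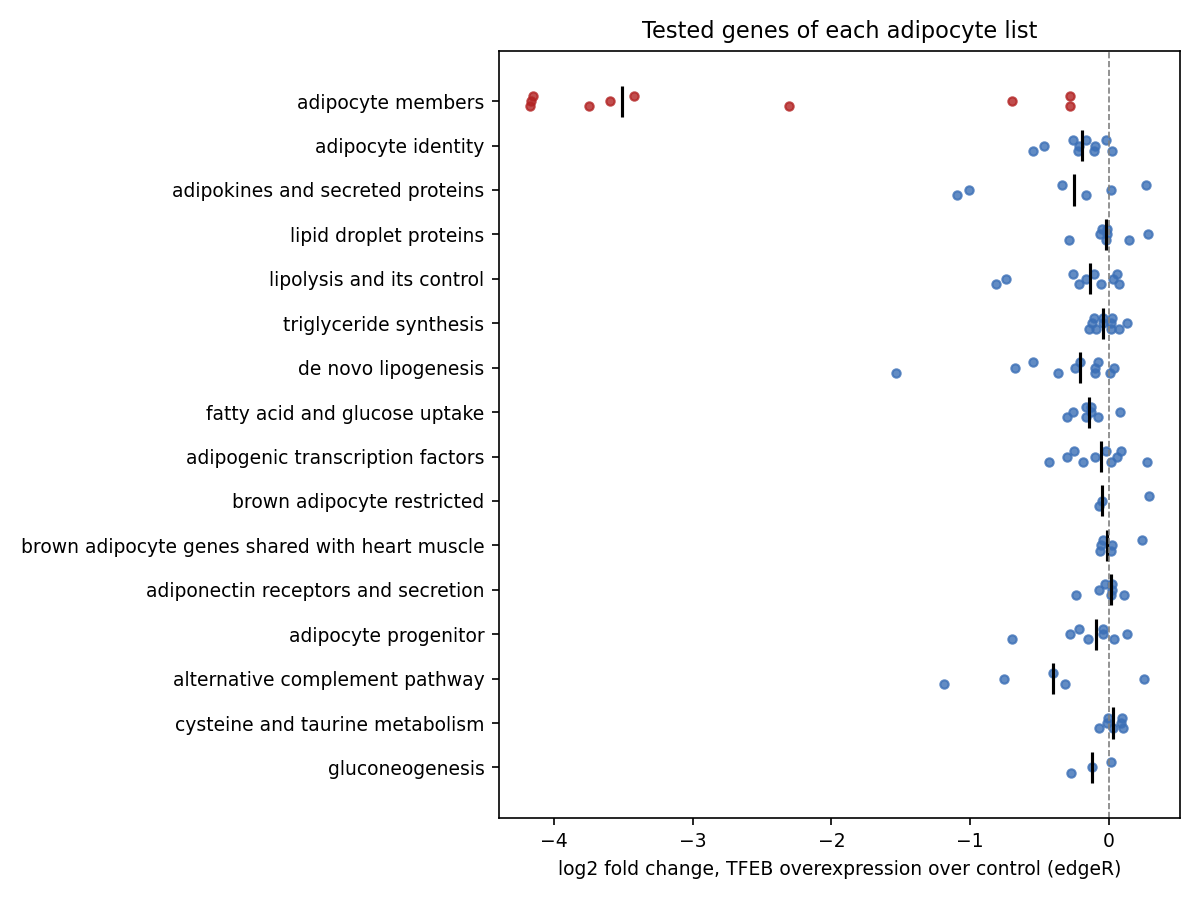
Log2 fold change (TFEB overexpression over control, edgeR) of each tested gene, 1 row per list, the 10 members in red, the other lists in blue, with the median of each list as a black line and that of all genes dashed. The member row has its median at −3.51, and the medians of the other lists lie between −0.41 and 0.03.

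Genes of brown fat were mostly too low to compare. Ucp1, the uncoupling protein that defines brown adipocytes, stood at 2.35 CPM in control 35, at 0.0636 CPM in TFEB 34 and at 0 in the other 4 libraries, control 36 included. Of the 10 genes of the brown adipocyte list 7 were too low to be tested. Among these Zic1 did not overlap, lower in TFEB overexpression, with controls in the order 36, 35, 37, at no more than 0.211 CPM. Slc27a2 and Tmem26 went the other way in their means, and their groups overlapped. Slc27a2 had 1, 0 and 1 counts in the 3 controls, against 19, 1 and 21 in TFEB 34, 41 and 43. Tmem26 had 5, 12 and 2 counts against 17, 7 and 7. Elovl3, Otop1 and Lhx8 had at most 3 counts in any library. The 3 tested were Dio2 (0.29), Prdm16 (−0.07) and Kcnk3 (−0.05), given as log2 fold changes, and their groups overlapped. The 6 brown fat genes that heart muscle shares had a median log2 fold change of −0.01, with the glycerol kinase gene Gk at 0.24. Among the metabolic partners of the members, the alternative complement genes had a median of −0.41 (4 of 5 below 0), with Cfb, the substrate of adipsin, at −1.19 (SE 0.56) and C3 at −0.76 (SE 0.35), neither called. Cysteine and taurine genes stood at 0.03 (3 of 7 below 0), with Gclc at 0.10, and gluconeogenesis genes at −0.12 (2 of 3).

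Markers of other cell types were read beside these values. Mesothelial markers, which mark the outer lining of the heart, had a lower value in 10 of 10 genes (median −1.57, 0 called; −0.99 without control 36, −2.14 without control 37, −0.39 by limma-voom and −0.45 on log2(TPM + 0.1), where 8 of the 10 were fitted), and summed to 189, 277 and 11.5 CPM in controls 35, 36 and 37 and to 59.9, 52.3 and 48.8 CPM in TFEB 34, 41 and 43. Control 36 was highest in both the mesothelial and the fat genes, but control 37 was the lowest library for the mesothelial genes, below every TFEB library, with Krt8 at 0 counts there. Of the 5 atrial muscle genes 4 were tested, and all 4 had values below 0 (median −5.09, 0 called). Myl7, Myl4 and Sln, picked after their values were seen, summed to 4091, 3.37 and 364 CPM in the controls and to 3.50, 20.6 and 105 CPM in the TFEB libraries, so control 35 was highest and control 36 and TFEB 34 were alike low, the libraries where the 7 fat genes were highest and lowest. Nppa of the same list ran otherwise, with 13805, 4178 and 597 CPM against 8454, 2328 and 224 CPM, and Bmp10 had 0 counts in controls 35 and 36 and was highest in TFEB 43, at 3.55 CPM. The part of the mesothelial and atrial marker levels in the result on the fat genes was not tested.

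Hepatocyte markers were considered because Cyp2e1, Pck1 and Cdo1 are also liver genes. Of 11 markers 8 were in the table and summed to 1.4 to 17.4 CPM in the controls and 1.91 to 2.89 CPM in TFEB overexpression. The sum was lowest in control 36, the highest library for 8 of the 10 members. Ahsg made up most of the sum in control 35, at 15.4 CPM, followed by Ttr at 1.28 CPM; the other 6 markers were below 1 CPM in every library, and Apoa1 and Apoc3 had 0 counts in all 3 TFEB libraries. The 10 cardiomyocyte markers summed to 76561 to 105875 CPM in the controls and 61867 to 118322 CPM in TFEB overexpression, although the labels also call the material primary fibroblasts. Fibroblast markers, 9 genes, summed to 4249 to 6279 and 3244 to 5821 CPM. The part of none of these cell types in the result was tested.

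**Figure D4:**
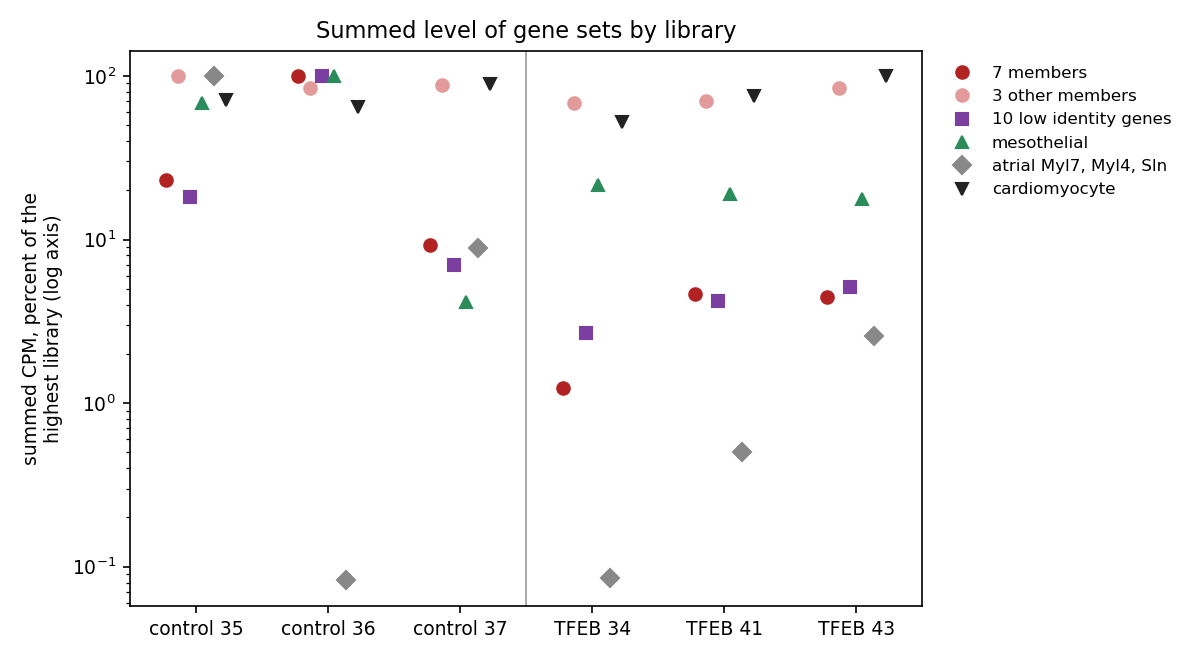
Summed CPM of gene sets in each library, as percent of the highest library of the set, on a log axis, controls left of the line and TFEB overexpression right of it. The 7 separated genes and the 10 low identity genes both peak in control 36 and reach at most 5.15% of that peak in the TFEB libraries. In control 37 they reach 9.29% and 6.99% of it. The mesothelial genes are lowest in control 37 and the sum of Myl7, Myl4 and Sln peaks in control 35.

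The genes whose log2 CPM over the 6 libraries was most like the mean of the 10 members were Tshz2 (Pearson r 0.99), Tas1r3 (0.99), Zfp664 (0.98), Car3 (0.98), Vsig4 (0.98), Ntrk2 (0.97), Rsl1 (0.97), Kcnh6 (0.97), Fcna (0.97) and Axin2 (0.97). These values are a description over 6 libraries, and the genes were picked for this likeness from the 13565 tested, with members and predicted gene symbols left out. Likeness in shape did not mean likeness in size: Tshz2 ran only from 27.6 CPM in TFEB 34 to 36.7 CPM in control 36. Car3, the carbonic anhydrase abundant in fat and slow muscle, moved as far as the members, with 25.8, 129 and 7.39 CPM in control libraries 35, 36 and 37 against 0, 4.03 and 4.54 CPM in TFEB libraries 34, 41 and 43. Its highest control was 17.5 times its lowest, and its groups did not overlap.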

How the data were processed

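RNA sequencing of 6 mouse heart libraries was analysed, 3 per group. Per the submitters' processing notes, which give no roles, the tools included RSEM 1.3.1, HISAT2 2.1.0, DESeq2 1.4.5 and Bowtie2 2.3.4.3, and the build was mm10. The authors deposited 1 table of 62498 transcripts with, per the file headers, estimated counts, TPM (scaled to the same sum in each library) and FPKM (scaled for length and depth). The sources used here do not state strand setting, annotation release or filters. Reads shared by overlapping genes or transcript models make values uncertain, as for Plin4.

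Estimated counts were summed per Entrez gene and rounded; symbols came from the RefSeq gene table (GRCm38.p6), which named all but 117 of 17524 genes. Library totals were 12942480 to 14969287. CPM was scaled by TMM factors. All genes passing filterByExpr (13565) were tested with edgeR 4.0.16 (glmQLFit, glmQLFTest, two-sided; R 4.3.3), with Benjamini-Hochberg adjustment and calls at 0.05. SE is the log2 fold change over the square root of F. With 3 against 3 an exact permutation test cannot go below 0.1, and none was run. Alternatives were RLE and upper-quartile scaling, DESeq2 1.42.0, limma-voom (limma 3.58.1), 2 other count filters, limma-trend on log2(TPM + 1), log2(TPM + 0.1) and log2(FPKM + 1), and leaving out each library. Simulated data for this comparison had 13565 genes, 100 changed per fold. On them edgeR recovered 25% of genes changed 2-fold and 79% of those changed 4-fold, with 11 false calls. These shares hold for the simulated data only. In the real libraries Adipoq, Cidec and Cfd were not called, with mean levels 17.5 to 17.7 times lower in TFEB overexpression.

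Named genes are the members, up to 4 genes of smallest p per list, identity genes of at least 1 CPM, and the 10 tested genes of highest Pearson r with the mean log2 CPM (prior count 2) of the members. Members and genes with predicted or clone symbols (Gm numbers, LOC, Rik and the like) were left out of that ranking. Others are markers of cell types from fixed lists. Members and lists were chosen with earlier results of these data known. The division into separated and overlapping members was made after seeing their values.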

Additional observations from a re-analysis of the deposited data

How the results depend on the processing

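All 145 log2 fold changes of members in the alternative fits were below 0, but their size was not stable. For the 7 separated genes the constant sign follows largely from the absence of overlap, on which nothing is read. The median of the members, −3.51, was −1.73 on log2(TPM + 1), where Pck1 was not fitted, and −1.59 on log2(FPKM + 1), where Cidec, Plin1 and Pck1 were not; over the same 9 and 7 genes edgeR gave −3.42 and −2.31. On log2(TPM + 0.1), which differs from log2(TPM + 1) only in the constant added, the same 9 genes gave a median of −2.83. The cause was not tested further. With a library left out the median of the members ran from −4.10 to −1.99, the latter without control 36. The number of members whose groups do not overlap, an alternative added after the data were seen, ran from 7 to 9 with a library left out, while 4.50% to 10.2% of the genes tested did not overlap in that direction. Leaving out a library cannot create an overlap, so the number of members could not fall below 7. DESeq2 called 1 gene where the other fits called 0, and none of the adipocyte list genes was called in any of the fits run. The median of the adipocyte lists, −0.06, ran from −0.222 (without TFEB 43) to −0.044 (without TFEB 41) with a library left out. Of 420 values of other named genes 13 had the other sign: Sncg was −0.019 by limma-voom, −0.034 on log2(TPM + 1), −0.042 on log2(TPM + 0.1) and −0.039 on log2(FPKM + 1), and −0.237 to 0.315 with a library left out; in those fits Cebpa ran from −0.666 to 0.291, Aqp7 from −0.358 to 0.099 and Trarg1 from −0.316 to 0.005. No paired analysis was possible because the groups share no replicate number. Depth limits the lowest values: 1 count is 0.0636 to 0.0826 CPM, so several TFEB values of Plin1, Cfd, Pck1 and Cyp2e1 rest on 1 to 3 counts.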
